A study of Mus musculus with 4 samples.

Results

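Sparcl1, the gene that encodes hevin, its family relative Sparc and the neuroligin gene Nlgn1 were followed through 4 single-cell RNA libraries of mouse cortex. They are 3 of the 32227 genes in the deposited count tables and were found by symbol. The Hevin group held 2 libraries and the mCherry group, which served as its control, held 2. All mice were wild type, were killed at postnatal day 15, and had received an adeno-associated virus in the cortex as newborns, which carried Hevin or mCherry behind GfaABC1D, a promoter active in astrocytes. Endogenous Sparcl1 was therefore intact in both groups, and it is not given whether transcripts of the virus could be counted as Sparcl1. In both groups the cells were dissociated in the presence of transcription and translation inhibitors, selected with CD11b beads and captured with PIPseq. How many animals a library held is not stated, so p-values measure only the spread between these libraries, which may be technical.

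Hevin and SPARC are secreted matricellular proteins of 1 family. Hevin is released by astrocytes and promotes the formation of excitatory synapses, in part by bridging presynaptic neurexins to postsynaptic neuroligin 1, a cell-adhesion protein. SPARC binds collagen and can antagonize hevin's synaptogenic action, and in brain it is known as a product of microglia and of vascular cells.

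Cells were sorted into classes by marker genes, none of which was 1 of the 3 genes. Microglia-gated cells, defined by genes such as P2ry12, Tmem119 and Sall1, numbered 6795 and 5929 in the Hevin group, against 15497 and 9435 in the mCherry group. Apoe-high cells (at least 150 Apoe UMIs, or unique transcript molecules, per 10000, Ms4a7 detected, Sall1 at 0) numbered 7295 and 4305 in the Hevin group and 32 and 20 in the mCherry group. Cells in no class numbered 4163 and 1770 (21.2% and 13.6% of kept cells) in the Hevin group and 496 and 247 (2.78% and 2.28%) in the mCherry group. Border macrophages, gated on Mrc1, Cd163 and related genes, numbered 971 and 780 in Hevin libraries and 1195 and 796 in mCherry libraries. Endothelial cells numbered 262 and 140 in Hevin libraries and 267 and 165 in mCherry libraries, and astrocytes 54 and 28 in Hevin libraries and 69 and 29 in mCherry libraries. Every marker of these 5 classes had at least 1 UMI in its own class in each library.

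The Hevin libraries held 55629684 and 52707417 UMIs, and the mCherry libraries 67832685 and 49781430. Median UMIs per deposited barcode were 2317 and 3490 in the Hevin libraries and 3349 and 4037 in the mCherry libraries, and Hevin replicate 1 stood apart by its shallow cells. Between 1 and 7 barcodes were shared by any pair of libraries.

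Sparcl1 lies on chromosome 5, at 104079111 to 104113733 on the minus strand of mm10, and overlaps the antisense gene Gm26703, which had 20 and 11 UMIs in the Hevin libraries and 54 and 15 in the mCherry libraries. Sparc lies on chromosome 11, at 55394500 to 55423183 on the minus strand, with no overlapping gene. Nlgn1 covers 906246 bases of chromosome 3, from 25426215 to 26332460 on the minus strand. Sparse reads fell to the genes within it, between 1 and 34 UMIs per library for Gm37573 and A830092H15Rik. Whether counting used strand is not given, so reads of antisense partners cannot be told apart.

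Of the 5 classes, hevin's own transcript was highest in astrocytes and next in endothelial cells, and stood at a low level in the 3 macrophage classes. In astrocytes it had 5297 and 7913 CPM (UMIs scaled to 1 common total) in the Hevin libraries and 5197 and 6022 CPM in the mCherry libraries. In microglia it had 40.1 and 19.6 CPM in the Hevin libraries and 49.5 and 17 CPM in the mCherry libraries. Every astrocyte value lay above every microglial value. The level in astrocytes was 163-fold that in microglia, a log2 difference of 7.35 ± 0.28 (SE; edgeR quasi-likelihood test with library as a block, Benjamini-Hochberg adjusted p = 1.6e-20; 52.7% of 13629 genes differed between these classes).

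Endothelial cells had 962 and 830 CPM of Sparcl1 in the Hevin libraries and 875 and 985 CPM in the mCherry libraries. This was 28.5-fold the microglial level, a log2 difference of 4.83 ± 0.25 (edgeR adjusted p = 2.3e-17; 64.3% of genes differed). The ratio of Sparcl1 to the sum of 9 astrocyte markers was 5.41 and 7.03 in endothelial cells of the Hevin libraries and 3.38 and 6.97 in those of the mCherry libraries, while in astrocytes it was 0.258 and 0.347 in Hevin libraries and 0.250 and 0.264 in mCherry libraries. The endothelial ratio exceeded the astrocyte ratio in all 4 libraries. The same 9 markers gated the astrocytes, and cells in both gates were left out, so this order depends in part on the gates. Mural cells, of which there were 18 and 17 in the Hevin libraries and 20 and 5 in the mCherry libraries, held 1562 and 580 CPM in the Hevin libraries and 1845 and 2995 CPM in the mCherry libraries, a range that overlapped the endothelial values and lay below the astrocyte values.

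**Figure D1:**
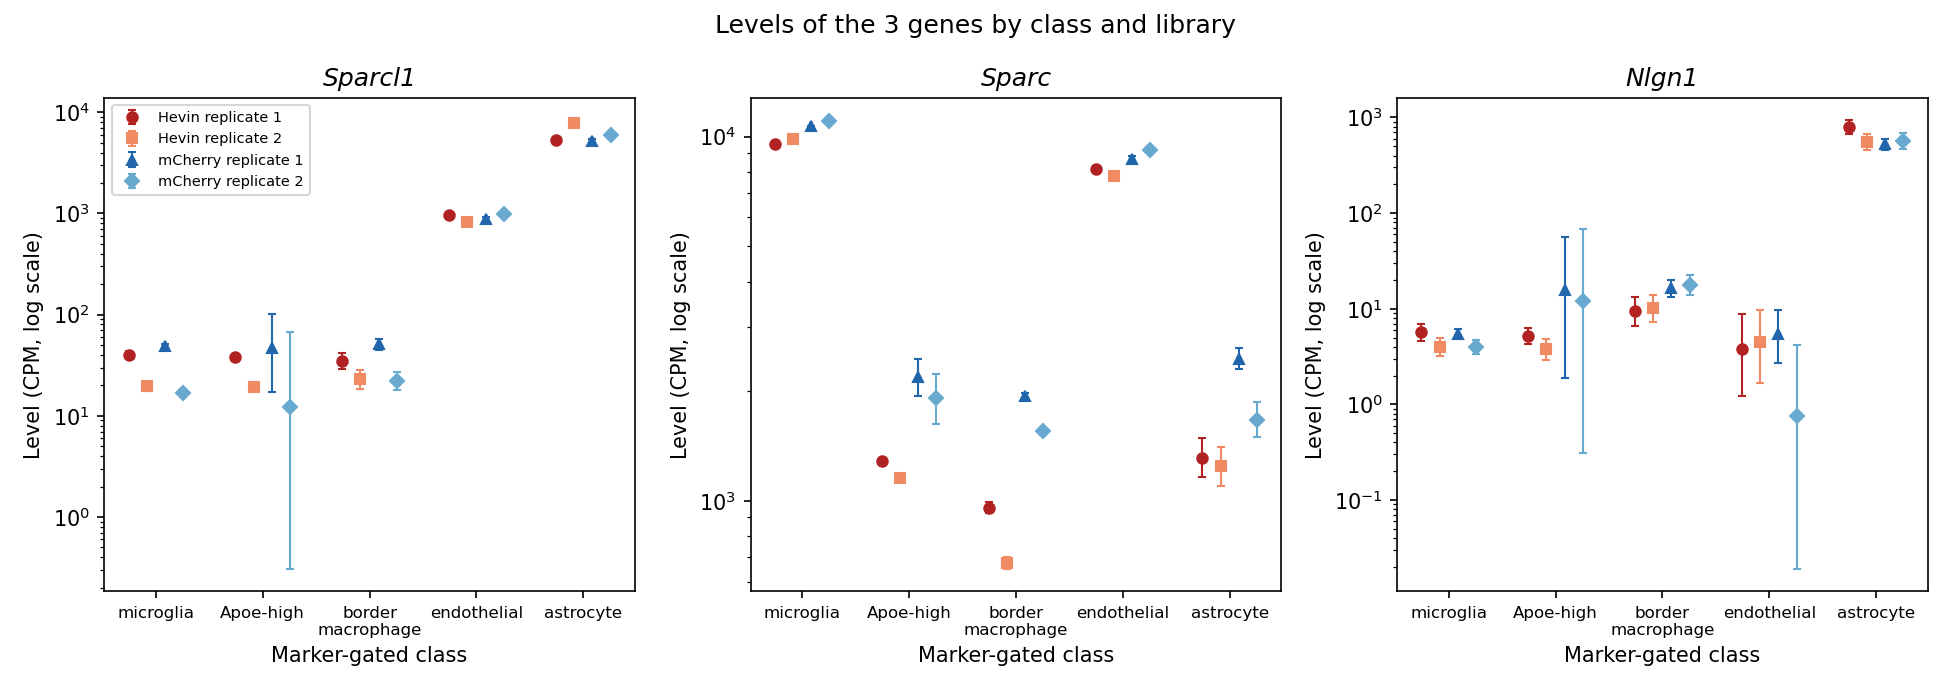
Levels of Sparcl1, Sparc and Nlgn1 in CPM (log axes that differ between panels) by marker-gated class, with 1 point per library, Hevin left of mCherry within a class, and bars for the 95% Poisson interval, which covers counting error only. Sparcl1 and Nlgn1 peak in astrocytes, while Sparc is high in microglia and endothelial cells and lower in Apoe-high cells, border macrophages and astrocytes.

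Among the macrophage classes the Sparcl1 level went with the library, not the class. Apoe-high cells had 38.5 and 19.5 CPM in the Hevin libraries and 46.8 and 12.2 CPM in the mCherry libraries. Border macrophages had 34.9 and 23.0 CPM in the Hevin libraries and 50.9 and 22.1 CPM in the mCherry libraries. In each of the 3 classes, replicate 1 of a group was higher than replicate 2. The mCherry Apoe-high values rest on only 6 and 1 UMIs. Neither class passed the test against microglia, with log2 differences of -0.01 (95% interval -0.57 to 0.55; edgeR adjusted p = 0.987; 33.3% of genes differed) for Apoe-high cells and -0.07 (-0.55 to 0.42; adjusted p = 0.835; 55.9% of genes differed) for border macrophages.

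The share of cells with a Sparcl1 UMI was counted after each cell had been thinned to 1000 UMIs. It was 94.3% and 89.3% of astrocytes in the Hevin libraries and 85.5% and 86.2% in the mCherry libraries. In endothelial cells it was 54.0% and 52.9% in the Hevin libraries and 53.9% and 61.8% in the mCherry libraries. In microglia it was 3.54% and 1.96% in the Hevin libraries and 4.85% and 1.67% in the mCherry libraries. Of neutrophils, a class that should lack the gene, 4 of 12 and 0 of 3 had a UMI in the Hevin libraries and 0 of 9 and 0 of 2 in the mCherry libraries, so the microglial share could not be told apart from background. Without thinning, at median depths of 2089 and 3307 UMIs in the Hevin libraries and 3266 and 3954 in the mCherry libraries, the microglial share was 8.58% and 6.65% in the Hevin libraries and 15.5% and 6.73% in the mCherry libraries.

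No Hevin effect on the Sparcl1 count passed the test in any class. Over all kept cells, Sparcl1 had 86.4 and 78.4 CPM in the Hevin libraries and 123 and 91.4 CPM in the mCherry libraries. The log2 difference was -0.26 ± 0.14 (edgeR adjusted p = 0.311; 11.1% of 19119 genes passed). When mCherry replicate 2 was left out, the difference of -0.45 passed (edgeR adjusted p = 0.0087). In astrocytes, the cells the virus was built to drive, the log2 difference was 0.25 ± 0.18 with an interval of -0.14 to 0.64 (edgeR adjusted p = 0.877; 0.384% of genes passed). In endothelial cells it was -0.03 ± 0.11, with an interval of -0.28 to 0.22 (edgeR adjusted p = 0.994; 0.47% of genes passed). In the microglia, Apoe-high and border macrophage classes the log2 differences were -0.13, 0.08 and -0.32, with adjusted p of 0.996, 0.968 and 0.914 by edgeR, where 0%, 1.87% and 0.44% of genes passed.

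The small astrocyte and endothelial classes gave a large share of the Sparcl1 UMIs, and microglia the largest share of the 5 classes in mCherry replicate 1. Astrocytes gave 22.4% and 38.9% of all Sparcl1 UMIs in the Hevin libraries and 23.9% and 25.6% in the mCherry libraries. Endothelial cells gave 26.6% and 26.8% in the Hevin libraries and 21.3% and 28.7% in the mCherry libraries. Microglia gave 13.4% and 10.2% in the Hevin libraries and 32.5% and 15.2% in the mCherry libraries, and Apoe-high cells 18.5% and 8.33% in Hevin libraries and 0.0721% and 0.0221% in mCherry libraries. Such shares join the number of cells and the level within them, and both are given per class. Microglia were 86.9% and 87.0% of kept cells in mCherry replicates 1 and 2, with 49.5 and 17 CPM of Sparcl1. Apoe-high cells numbered 7295 in Hevin replicate 1 and 32 in mCherry replicate 1, with 38.5 and 46.8 CPM.

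Sparc was high in microglia and endothelial cells and low in Apoe-high cells, border macrophages and astrocytes. Microglia had 9542 and 9878 CPM in the Hevin libraries and 10690 and 11050 CPM in the mCherry libraries. Endothelial cells had 8150 and 7798 CPM in the Hevin libraries and 8709 and 9213 CPM in the mCherry libraries, below the microglia of the same library in all 4. The log2 difference of endothelial cells from microglia was -0.41 ± 0.16 (edgeR adjusted p = 0.0257), and the call was lost with total-count scaling (log2 difference -0.28, adjusted p = 0.0876), without Hevin replicate 2 (-0.21, adjusted p = 0.195) and without mCherry replicate 2 (-0.42, adjusted p = 0.0630). The few mural and fibroblast cells lay in the same high range. Sparc had 6824 and 9005 CPM in mural cells of the Hevin libraries and 8193 and 6667 CPM in those of the mCherry libraries, and 6732 and 5921 CPM in fibroblasts of the Hevin libraries and 7386 and 9020 CPM in those of the mCherry libraries.

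Apoe-high cells had 1285 and 1156 CPM of Sparc in the Hevin libraries and 2182 and 1910 CPM in the mCherry libraries. Their level was 0.137 times the microglial one, a log2 difference of -2.86 ± 0.18 (edgeR adjusted p = 1.5e-14). Border macrophages had 957 and 676 CPM in the Hevin libraries and 1936 and 1551 CPM in the mCherry libraries, 0.104 times the microglial level (log2 difference -3.27 ± 0.18, edgeR adjusted p = 1.6e-16). Astrocytes had 1314 and 1243 CPM in the Hevin libraries and 2457 and 1670 CPM in the mCherry libraries, 0.121 times the microglial level (log2 difference -3.05 ± 0.18, edgeR adjusted p = 1.3e-15). The 3 low classes did not overlap microglia in any library.

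Nearly every microglial cell carried Sparc. After thinning to 1000 UMIs, 99.8% of microglia in both Hevin libraries had at least 1 Sparc UMI, as did 15494 of 15497 and 9433 of 9435 microglia in the mCherry libraries, with medians of 9 and 9 UMIs in the Hevin libraries and 10 and 11 in the mCherry libraries. Apoe-high cells had a Sparc UMI in 68.9% and 64.5% of cells in the Hevin libraries and 87.5% and 85.0% in the mCherry libraries. At least 5 UMIs were found in 2.42% and 2.09% of Apoe-high cells in the Hevin libraries, against 89.5% and 91.3% of microglia in the same libraries. Few Apoe-high cells reached the levels common in microglia. Of neutrophils, which should lack the gene, 8 of 12 and 2 of 3 had a Sparc UMI in the Hevin libraries, as did 6 of 9 and 2 of 2 in those of the mCherry group. Border macrophages had a Sparc UMI in 58.5% and 48.7% of cells in the Hevin libraries and 84.0% and 74.0% in the mCherry libraries. Astrocytes had a Sparc UMI in 73.6% and 46.4% of cells in the Hevin libraries and 88.4% and 72.4% in the mCherry libraries. The shares in Apoe-high cells, border macrophages and astrocytes of the Hevin libraries lay near or below those of neutrophils and are not read as expression.

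**Figure D2:**
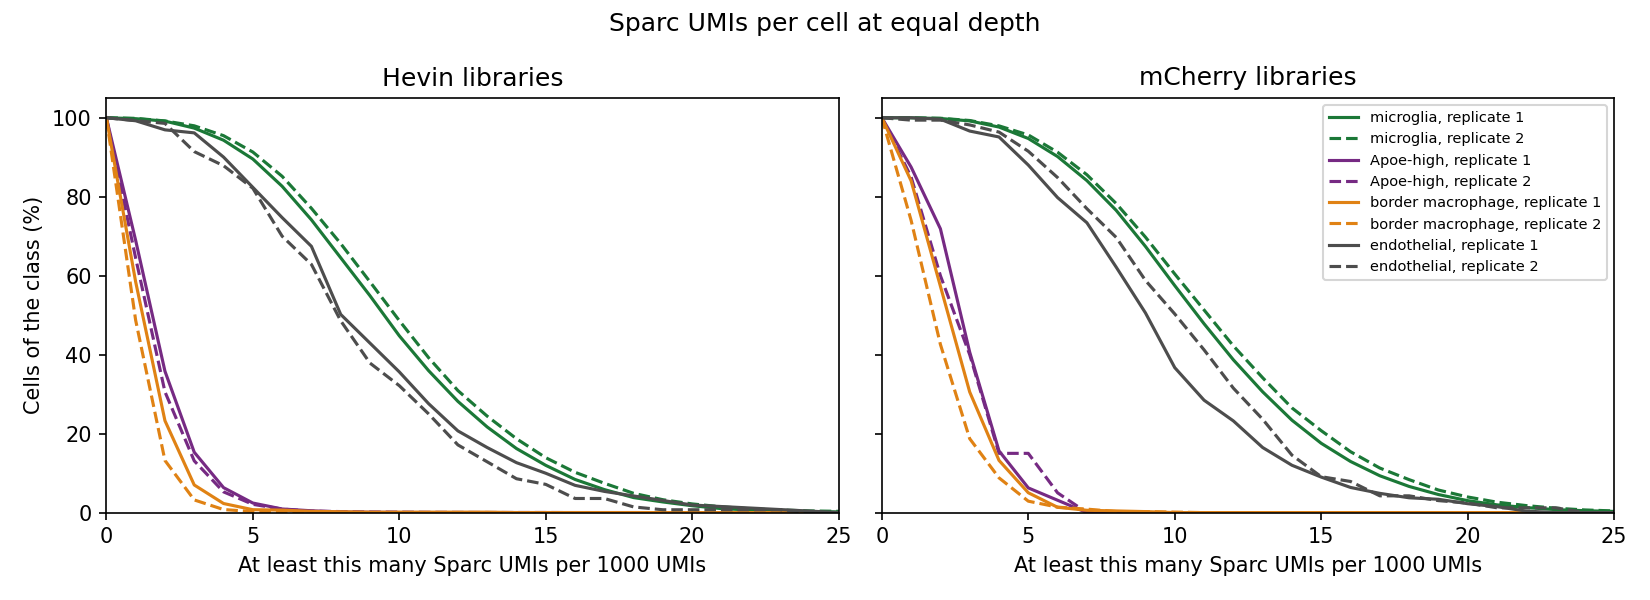
Share of cells (percent) with at least a given number of Sparc UMIs after thinning each cell to 1000 UMIs, with 1 line per class and replicate, Hevin libraries in the left panel and mCherry libraries in the right one. At 5 UMIs the Hevin lines stand at 89.5% and 91.3% for microglia and at 2.42% and 2.09% for Apoe-high cells.

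Sparc was lower in cells with more Apoe, with a steep drop and then a level stretch in the Hevin libraries and a graded fall in the mCherry libraries. Cells that were microglia-gated, Apoe-high or in no class were binned by their Apoe UMIs per 10000. Below 100, Sparc stayed between 8470 and 9570 CPM in the Hevin libraries and between 9314 and 10944 CPM in the mCherry libraries. Between 100 and 150 it was 3578 and 3626 CPM in the Hevin libraries and 6147 and 6583 CPM in the mCherry libraries. Between 150 and 250 it was 1658 and 1830 CPM in the Hevin libraries (1753 and 936 cells), against 4262 and 4426 CPM in those of the mCherry group (49 and 23 cells). From 400 upward it was 1371 and 1212 CPM in the Hevin libraries and 2910 and 2373 CPM in the mCherry libraries, where only 13 and 11 cells stood. At the same Apoe level the Hevin libraries were lower in every bin, and the mCherry bins above 250 rest on few cells. The microglial gene P2ry12 was lower in the same bins. It had 1638 and 1721 CPM between 100 and 150 in the Hevin libraries, against 2732 and 2976 CPM in those of the mCherry group. Between 150 and 250 it had 996 and 1154 CPM in the Hevin libraries, against 1782 and 2245 CPM in those of the mCherry group, and its part in the Sparc difference was not tested.

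**Figure D3:**
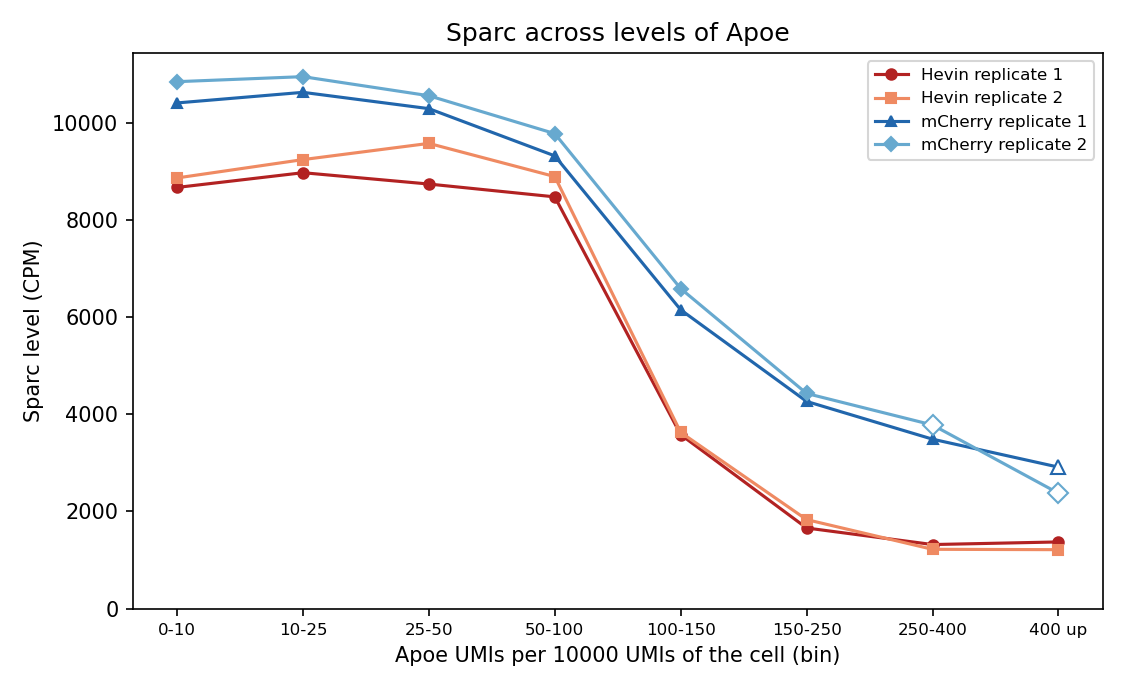
Sparc level (CPM, linear axis from 0) in cells binned by Apoe UMIs per 10000, with 1 line per library and open markers for bins of fewer than 20 cells. Sparc is near its highest below 100 and falls at higher Apoe, to 1371 and 1212 CPM in the Hevin libraries and to 2910 and 2373 CPM in the mCherry libraries in the last bin.

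Cells with both Apoe above the same bound and the microglial genes Sall1 and P2ry12 detected lay between. They numbered 633 and 495 in the Hevin libraries and 25 and 11 in the mCherry libraries. Their Sparc level was 1755 and 2137 CPM in the Hevin libraries and 5536 and 4108 CPM in the mCherry libraries. Cells below the bound with the same microglial genes detected had 9183 and 9649 CPM in the Hevin libraries and 10557 and 10867 CPM in the mCherry libraries. Cells at or above the bound with Sall1 at 0 had 1363 and 1234 CPM in the Hevin libraries and 3234 and 3545 CPM in the mCherry libraries. In each library the first set lay nearer to the cells with Sall1 at 0.

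Over all kept cells Sparc fell to 4040 and 5042 CPM in the Hevin libraries, against 9439 and 9736 CPM in the mCherry libraries. The log2 difference was -0.96 ± 0.13 (edgeR adjusted p = 0.0050; 4.3% of genes were lower). Within microglia the log2 difference was -0.12 ± 0.08 with an interval of -0.32 to 0.08 (edgeR adjusted p = 0.990). No gene of 17088 passed in microglia (0%), although 1019 had an unadjusted p below 0.05 by edgeR and DESeq2 called 151.

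The makeup of the libraries moved with the fall. Of the UMIs of microglia and Apoe-high cells together, Apoe-high cells held 59.0% and 45.2% in the Hevin libraries and 0.234% and 0.202% in the mCherry libraries. Sparc over these 2 classes was 4674 and 5939 CPM in the Hevin libraries and 10670 and 11031 CPM in the mCherry libraries. With each library's own class levels weighted to the mCherry makeup, it was 9524 and 9859 CPM in the Hevin libraries and 10671 and 11030 CPM in the mCherry libraries. The mCherry makeup held only 0.218% Apoe-high UMIs, so these weighted values nearly repeat the microglial levels and are no separate test. On them the Hevin values were still lower, and the gap between the groups was smaller than as found.

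Sparc counts in Apoe-high cells, border macrophages and astrocytes of the Hevin libraries, not read as expression above, were still tested as counts. Within Apoe-high cells Sparc fell by 0.49 ± 0.14 on the log2 scale in Hevin libraries (edgeR adjusted p = 0.0445; 1.87% of genes passed, and the median log2 difference of all genes was 0.21). This call was lost without mCherry replicate 1 (log2 difference -0.36, adjusted p = 0.540), without mCherry replicate 2 (-0.58, adjusted p = 0.0816), without Hevin replicate 2 (-0.56, adjusted p = 0.198) and under other settings of filter and depth. Within border macrophages it fell by 1.04 ± 0.16 (edgeR adjusted p = 0.0371; 0.44% of genes passed), and that call was lost without mCherry replicate 1 (log2 difference -0.88, adjusted p = 0.348). In astrocytes the log2 difference was -0.68 ± 0.21 (edgeR adjusted p = 0.318; -0.94 and 0.0362 when mCherry replicate 2 was left out) and in endothelial cells -0.14 ± 0.06 (edgeR adjusted p = 0.723).

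In several other classes the microglial markers were lower in the Hevin libraries. The 8 microglial markers summed to 1921 and 1579 CPM in border macrophages of the Hevin libraries and to 2960 and 2468 CPM in those of the mCherry libraries. In astrocytes they summed to 1503 and 1273 CPM in the Hevin libraries, against 2400 and 1888 CPM in the mCherry libraries. In endothelial cells, where the log2 difference of Sparc was only -0.14, they summed to 1075 and 714 CPM in the Hevin libraries. The mCherry endothelial cells had 2216 and 1686 CPM. Sparc also stood lower in the Hevin libraries in some small classes outside the macrophages, but not in mural cells. In mural cells Sparc had 6824 and 9005 CPM in the Hevin libraries and 8193 and 6667 CPM in the mCherry libraries. It had 900 and 789 CPM in oligodendrocyte-lineage cells of the Hevin libraries against 1977 and 1579 CPM in those of the mCherry libraries, and 1000 and 440 CPM in neutrophils of the Hevin libraries against 2197 and 1563 CPM in the mCherry libraries. In Apoe-high cells the microglial markers summed to 3337 and 3411 CPM in the Hevin libraries and 3436 and 3383 CPM in the mCherry libraries. These cells had Sall1 at 0 and had to fail the microglia gate. Their sum was thus partly bounded by the gate and cannot show whether microglial RNA moved. The part of free microglial RNA in the differences was not tested.

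Sparc per microglial-marker UMI was 0.808 and 0.764 in microglia of the Hevin libraries and 0.753 and 0.759 in those of the mCherry libraries. In astrocytes it was 0.875 and 0.977 in the Hevin libraries and 1.02 and 0.885 in the mCherry libraries. In border macrophages it was 0.498 and 0.428 in the Hevin libraries and 0.654 and 0.628 in the mCherry libraries, lower than in microglia. In Apoe-high cells it was 0.385 and 0.339 in the Hevin libraries and 0.635 and 0.565 in the mCherry libraries. Endothelial cells stood above all of these, at 7.58 and 10.9 in the Hevin libraries and 3.93 and 5.46 in the mCherry libraries. The endothelial ratio exceeded the microglial one in all 4 libraries, while the Apoe-high and border macrophage ratios lay below it in all 4. Microglia were gated on these markers and the other classes had to fail that gate, so the ratios depend in part on the gates.

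**Figure D4:**
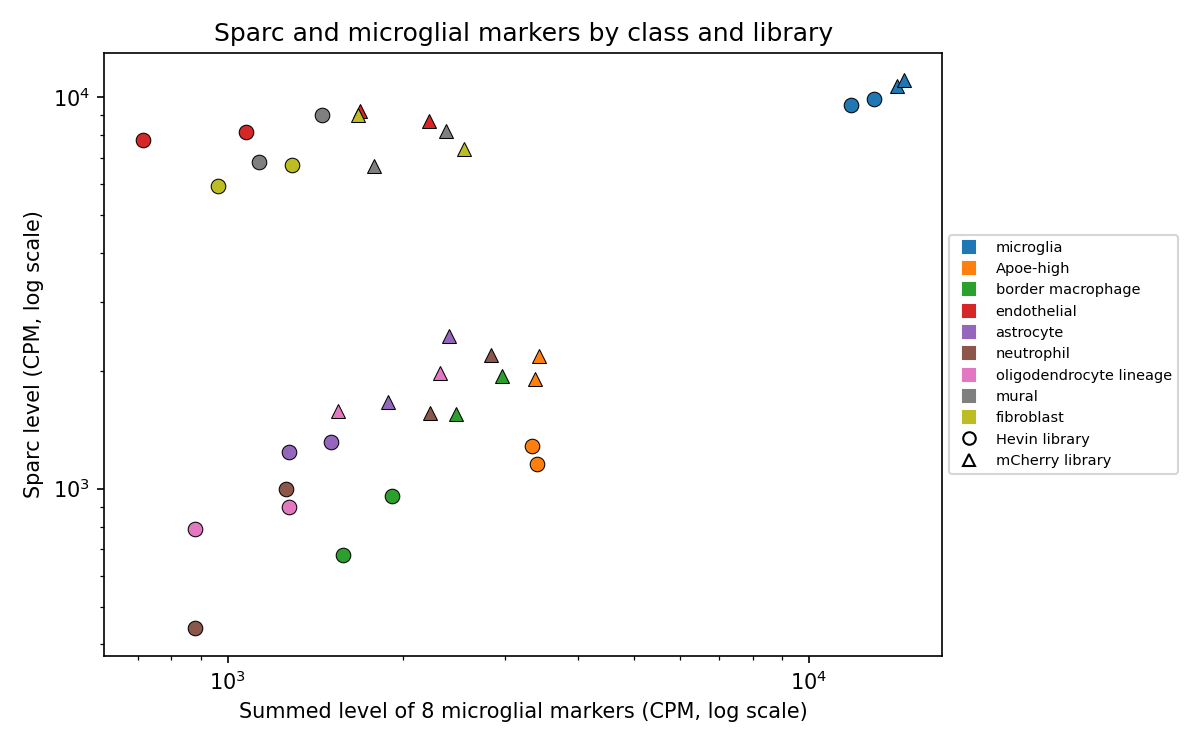
Sparc level against the summed level of 8 microglial markers (both in CPM, log axes), with 1 point per class and library, circles for Hevin and triangles for mCherry libraries. Microglia stand at the upper right, endothelial, mural and fibroblast cells at the upper left with high Sparc and few microglial markers, and the other classes below, with Apoe-high cells farthest right among them.

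The difference of the Hevin effect between classes was tested directly for Sparc. Relative to microglia, the log2 effect was -0.36 ± 0.09 in Apoe-high cells (edgeR interaction, adjusted p = 0.0083; 1.59% of genes passed, with a median of 0.41 over all genes) and -0.93 ± 0.15 in border macrophages (adjusted p = 0.0162; 0.332% of genes passed). In endothelial cells the difference was -0.01 with an interval of -0.18 to 0.16 (edgeR adjusted p = 1; 0.00655% of genes passed), and in astrocytes -0.55 with an interval of -1.19 to 0.08 (edgeR adjusted p = 1; 0.0452% of genes passed).

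**Figure D5:**
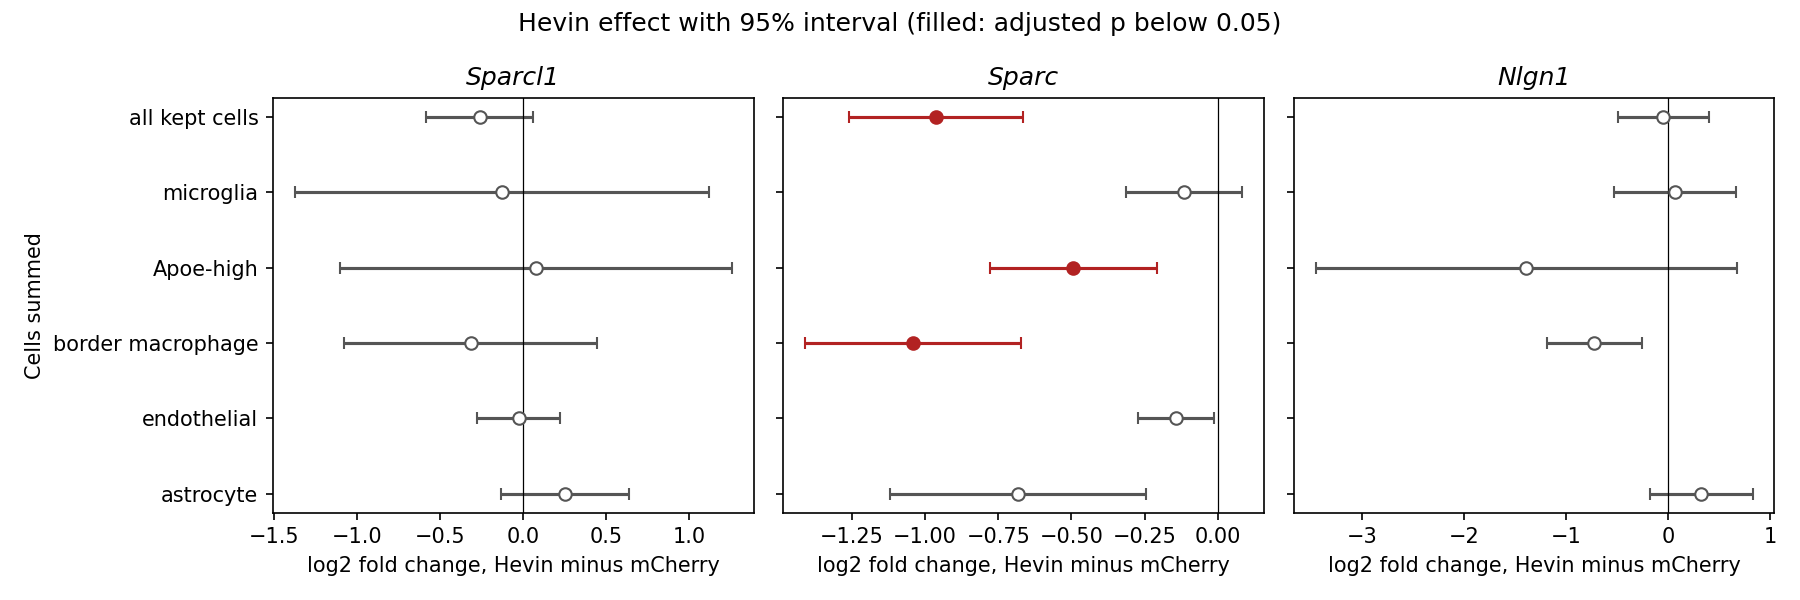
Log2 difference (Hevin minus mCherry) of Sparcl1, Sparc and Nlgn1 in all kept cells and in each class, with 95% intervals that are not adjusted for the number of genes and filled points where the adjusted p was below 0.05. The filled points are Sparc in all kept cells, Apoe-high cells and border macrophages, and Nlgn1 in endothelial cells has no point because its counts were too low for the fit.

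Of the 5 classes, Nlgn1 was highest in astrocytes. Astrocytes had 799 and 553 CPM in the Hevin libraries and 523 and 565 CPM in the mCherry libraries, against 5.68 and 4.02 CPM in microglia of the Hevin libraries and 5.50 and 4.0 CPM in those of the mCherry libraries. The level was 96.4-fold that in microglia, a log2 difference of 6.59 ± 0.16 (edgeR adjusted p = 1.1e-25). Oligodendrocyte-lineage cells, of which there were 21 and 7 in Hevin libraries and 14 and 7 in mCherry libraries, held 319 and 271 CPM in the Hevin libraries and 409 and 195 CPM in the mCherry libraries.

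Border macrophages had more Nlgn1 than microglia, with 9.53 and 10.2 CPM in the Hevin libraries and 16.3 and 17.8 CPM in the mCherry libraries. This was 2.57-fold the microglial level (log2 difference 1.36 ± 0.17, edgeR adjusted p = 4.6e-08), and each border macrophage value lay above each microglial value. Endothelial cells held 5 and 6 UMIs in the Hevin libraries and 11 and 1 in the mCherry libraries, and their log2 difference from microglia was -0.45 with an interval of -1.21 to 0.31 (edgeR adjusted p = 0.296). Apoe-high cells had 5.22 and 3.80 CPM in the Hevin libraries and 2 and 1 UMIs in the mCherry libraries, and their log2 difference from microglia was 0.03 with an interval of -0.39 to 0.45 (edgeR adjusted p = 0.944).

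No Hevin effect on Nlgn1 passed the test. In border macrophages the log2 difference was -0.72 ± 0.21 (edgeR adjusted p = 0.275). In Apoe-high cells it was -1.39 ± 1.05 (edgeR adjusted p = 0.700), with only 2 and 1 UMIs in the mCherry libraries. It was 0.33 ± 0.24 in astrocytes (edgeR adjusted p = 0.877), 0.06 in microglia (adjusted p = 0.996) and -0.05 over all kept cells (adjusted p = 0.924). After thinning, a Nlgn1 UMI was seen in 39.6% and 35.7% of astrocytes in the Hevin libraries and in 42.0% and 24.1% in the mCherry libraries. Over the shares of cells with a UMI, the exact permutation test with 2 libraries against 2 cannot give a two-sided p below 0.333, so no difference of shares could pass.

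The genes whose levels ran most like each of the 3 were sought by Pearson r of log2(CPM + 1) over the 20 sums of 4 libraries and 5 classes, among 9815 genes, as a description: the points share libraries and depths. For Sparcl1 they were Htra1 (r = 0.995), Npdc1, Cdh2, Fam181b and Car2 (0.986). For Sparc they were Ecscr (0.942), Lims1, Nbeal2, Cdca7 and Tgfa (0.886). For Nlgn1 they included Ddhd1 (0.986), Ppp2r2b, Mt1 and Ntsr2 (0.971), and the last was itself used to gate astrocytes. Ecscr, the leader for Sparc, averaged 482 CPM in microglia, 277 CPM in endothelial cells and 97.7 CPM in Apoe-high cells, the same order as Sparc.

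Of the other SPARC relatives, Spock2, a secreted proteoglycan gene, was endothelial: it had 2297 and 2019 CPM there in the Hevin libraries and 2280 and 2499 CPM in the mCherry libraries, against a mean of 15.5 CPM in microglia (log2 difference 7.17 ± 0.19, edgeR adjusted p = 6.2e-25). Fstl1, a follistatin-like secreted protein gene, was higher in endothelial cells (log2 difference 4.40) and astrocytes (4.59) than in microglia. Of 6 such relatives, 3 were higher and 1 was lower in endothelial cells (30.8% and 33.5% of all genes were), with a median log2 difference of 1.91 against -0.08 over all genes. Over all kept cells, where 11.1% of all genes passed, Spock2 was the only 1 of the 6 to pass for Hevin, with 78.2 and 67.4 CPM in the Hevin libraries and 120 and 106 CPM in the mCherry libraries (log2 difference -0.52 ± 0.10, edgeR adjusted p = 0.0203).

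Most tested genes among the listed neuroligins, neurexins and their organizers were also higher in astrocytes than in microglia. Of 9 tested of 12 genes in that list, 7 were higher in astrocytes than in microglia and 0 lower (23.8% and 29% of all genes were), with a median log2 difference of 5.27 against -0.18 over all genes. Mdga2, whose product binds neuroligins, had 754 and 390 CPM in astrocytes of the Hevin libraries and 606 and 565 CPM in those of the mCherry libraries, against a mean of 4.0 CPM in microglia (log2 difference 6.81 ± 0.16, edgeR adjusted p = 1.5e-25). Of the other astrocyte-secreted synapse regulators, 4 of 7 were higher in astrocytes, among them Gpc6 (log2 difference 5.20) and Chrdl1 (6.87), and 1 was lower, Tgfb1 (-2.81). In the astrocyte class, 0 of the tested genes of these lists passed for Hevin, where only 0.384% of all genes passed.

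SPARC binds collagens and is cleared by stabilin 1, the product of Stab1. Of the 5 classes Stab1 was highest in border macrophages, with 2521 and 2603 CPM in the Hevin libraries and 2629 and 2944 CPM in the mCherry libraries, against a mean of 345 CPM in microglia (log2 difference 2.79 ± 0.14, edgeR adjusted p = 3.8e-17). In Apoe-high cells it was 873 and 928 CPM in the Hevin libraries and 1364 and 1764 CPM in the mCherry libraries (log2 difference 1.59 from microglia). Over all kept cells Stab1 rose to 790 and 756 CPM in the Hevin libraries, against 510 and 557 CPM in the mCherry libraries (log2 difference 0.65 ± 0.09, edgeR adjusted p = 0.0074). Within Apoe-high cells its log2 difference for Hevin was -0.52 ± 0.15 (edgeR adjusted p = 0.0359), and 1 of 7 genes of the list was called there, against 1.87% of all genes. The median of that list in Apoe-high cells was -0.29 against 0.21 over all genes. The mCherry Apoe-high class held only 32 and 20 cells. Border macrophage markers summed to 5867 and 5318 CPM in it, against 3146 and 3062 CPM in Apoe-high cells of the Hevin libraries. Their part in the Stab1 difference was not tested.

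Vcam1, an adhesion receptor listed as bound by SPARC, was higher than in microglia both in Apoe-high cells (log2 difference 3.33) and in border macrophages (2.98), and rose over all kept cells to 54.8 and 66.7 CPM in the Hevin libraries against 19.6 and 20.8 CPM in the mCherry libraries (log2 difference 1.70 ± 0.10, edgeR adjusted p = 0.00022). Over all kept cells, where 11.1% of all genes passed, 2 of the 9 genes of this list were higher (Stab1 and Vcam1) and Col4a1 was lower (log2 difference -0.41, edgeR adjusted p = 0.0321), with a median of 0.16 against 0.0023 over all genes. Within each of the 5 classes, 0 genes of this list were higher for Hevin by the test. Of all genes, 0%, 1.87%, 0.44%, 0.47% and 0.384% passed in either direction in microglia, Apoe-high cells, border macrophages, endothelial cells and astrocytes. At such shares a count of 0 says little about the list. The basement-membrane collagen genes Col4a1 and Col4a2 were endothelial, with log2 differences of 6.15 and 6.57 from microglia. Of the proteases that can cut hevin or SPARC, Mmp9 was higher in border macrophages (log2 difference 5.79) and Adamts1 in endothelial cells (4.84). Ctsb, a cathepsin, had 1820 and 1842 CPM in Apoe-high cells of the Hevin libraries and 3148 and 3541 CPM in those of the mCherry libraries (log2 difference -0.61 ± 0.14, edgeR adjusted p = 0.0030). Mmp9, which rests on few UMIs, had 1.74 and 1.59 CPM in Apoe-high cells of the Hevin libraries and 7.79 and 48.7 CPM in those of the mCherry libraries (log2 difference -3.58 ± 1.01, edgeR adjusted p = 0.0333). The mean of Mmp9 reached 10 CPM only through the mCherry libraries. Ctsb and Mmp9 were 2 of only 3 proteases tested in these cells, where 1.87% of all genes passed. That is too few for a reading of the list.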

How the data were processed

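For each of 4 libraries, made with PIPseq per the labels' protocols, the deposited values are UMI counts that the authors did not normalize. The genome build is mm10 per the submitters' processing notes. Aligner, counter, annotation and cell-calling rule were not given in the sources used here. Gene positions came from GENCODE for mm10. Genes, classes, lists and thresholds were chosen with earlier results of these data known, and gate thresholds after seeing these data.

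Of 61686 barcodes, 61371 were kept, with a minimum of 500 UMIs and 300 genes and a maximum of 10% mitochondrial UMIs. A class needed at least 5 of 9 astrocyte, 5 of 8 endothelial or 5 of 7 border macrophage markers. Microglia needed at least 4 of 8 markers, at least 60 marker UMIs per 10000 and Apoe below 150 per 10000. Apoe-high cells were those at or above 150 that failed the microglia gate, with Ms4a7 detected and Sall1 at 0. Cells in several gates were left out, and no doublet caller was run. Cells within 50 of the Apoe bound were 582 and 229 (below) and 653 and 376 (above) in Hevin libraries, and 94 and 43, and 30 and 12, in mCherry libraries.

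Counts were summed per library and class and tested with edgeR 4.0.16 (quasi-likelihood, TMM, filterByExpr) in R 4.3.3, with Benjamini-Hochberg adjustment over all genes tested and 0.05 as the threshold. Class differences and interactions had library as a block. The named-gene rule took the 3 genes, listed related genes that passed and averaged 10 CPM or more, and the 5 most similar genes to each. A gene that this rule names is not reported here. CPM printed are UMI counts scaled to a common total, without TMM, the 95% share intervals are exact binomial and cover counting error only, and DESeq2 1.42.0 was an alternative. Fits were checked on simulated counts. Replicates of a group differed beyond sampling noise, with chi-square per gene of 27.9 and 22.5.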

Additional observations from a re-analysis of the deposited data

Results flagged for a closer look

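Sparc was flagged because its Hevin effect differed between classes by the test of the difference itself. The log2 effect in Apoe-high cells minus that in microglia was -0.36, with Hevin Apoe-high cells at 1285 and 1156 CPM and mCherry ones at 2182 and 1910 CPM. The log2 effect in border macrophages minus that in microglia was -0.93. The few neutrophils, which should lack Sparc, had 1000 and 440 CPM in the Hevin libraries and 2197 and 1563 CPM in the mCherry libraries. The part of background RNA in either difference was not tested. The microglial-marker sum in border macrophages was lower in the Hevin libraries, and its part in this difference was not tested. Only 32 and 20 cells made up the mCherry Apoe-high class.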

How the results depend on the processing

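Of the tested Hevin effects on the 3 genes, 171 alternatives kept the direction and the side of the threshold, 16 reversed, 8 lost the call and 5 gained one. Of the class differences, 123 kept both, 14 reversed and 7 lost the call. The cause was not tested except where fewer libraries entered. The fall of Sparc over all kept cells kept its call under every alternative run. The Sparc Hevin effect in Apoe-high cells lost its call at a mean of at least 10 CPM (log2 difference -0.60, adjusted p = 0.0778), with cells of at least 3000 UMIs (-0.48, adjusted p = 0.101) and with the 5% deepest cells removed (-0.36, adjusted p = 0.354). In astrocytes the Sparc effect passed with cells that carry microglial markers kept, an alternative chosen after seeing the data (-1.09, adjusted p = 0.0018). The labels give the groups the same replicate numbers, but no shared batch, and replicate deviations correlated at 0.357 over 19119 genes with 2 pairs. With the replicate number as a block, Sparcl1 over all kept cells was -0.25 (adjusted p = 0.0156), Sparc in Apoe-high cells -0.49 (adjusted p = 0.0513) and Sparc in astrocytes -0.66 (adjusted p = 0.0383), and genes called for Hevin were 4533 over all kept cells, 603 in microglia, 101 in border macrophages, 215 in endothelial cells and 47 in astrocytes, against 2131, 0, 54, 47 and 17 without the block. Sparc in endothelial cells minus microglia lost its call with total counts only (-0.28), at 10 CPM (-0.18), in mCherry libraries alone (-0.36), with the 5% deepest cells removed (-0.31) and with cells that carry microglial markers kept (-0.41).

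No reversed value passed the test, before or after it turned. Nlgn1 in microglia was -0.28 with cells of at least 3000 UMIs. The Sparcl1 Hevin effect in Apoe-high cells was -0.18 with total counts only, -0.010 with DESeq2, -0.027 at 10 CPM and -0.10 with stricter gates. Nlgn1 in Apoe-high cells minus microglia was -0.039 with total counts only, -0.040 in Hevin libraries alone and -0.039 with cells that carry microglial markers kept. Sparcl1 in border macrophages minus microglia was 0.10 with total counts only, 0.045 in mCherry libraries alone and 0.014 with stricter gates. Sparcl1 in Apoe-high cells minus microglia was 0.0020 at 10 CPM, 0.039 in Hevin libraries alone, 0.029 with cells of at least 3000 UMIs and 0.032 with the 5% deepest cells removed.

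Genes called for Hevin over all kept cells were 1323 with cells of at least 3000 UMIs. In microglia they were 151 by DESeq2, 331 with no filter, 16 at 10 CPM, 13 with cells of at least 3000 UMIs, 6 with the 5% deepest cells removed and 13 with stricter gates. In Apoe-high cells, where 244 were called, they were 159 with total counts only, 46 at 10 CPM and 115 with stricter gates. In border macrophages they were 86 by DESeq2, 329 with no filter and 113 with cells that carry microglial markers kept. In endothelial cells they were 20 by DESeq2, 182 with no filter, 27 with the 5% deepest cells removed, 9 with stricter gates and 87 with cells that carry microglial markers kept. In astrocytes they were 6 by DESeq2, 43 with no filter, 0 at 10 CPM, 36 with the 5% deepest cells removed, 0 with stricter gates and 29 with cells that carry microglial markers kept. Apoe-high cells differed from microglia in 987 genes in mCherry libraries alone, against 4543.

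Leaving out each library in turn, the log2 Hevin effect on Sparc ranged from -0.74 to -0.36 in Apoe-high cells, from -1.31 to -0.80 in border macrophages and from -0.94 to -0.39 in astrocytes. That on Sparcl1 ranged from -0.45 to -0.039 over all kept cells, from -0.72 to 0.84 in microglia, from -0.42 to 1.55 in Apoe-high cells, from -0.76 to 0.43 in border macrophages, from -0.16 to 0.085 in endothelial cells and from -0.094 to 0.51 in astrocytes. That on Nlgn1 ranged from -0.27 to 0.15 over all kept cells and from -0.20 to 0.31 in microglia. Differences from microglia ranged from -0.43 to -0.21 for Sparc in endothelial cells, from -0.27 to 0.17 for Sparcl1 in Apoe-high cells, from -0.14 to 0.035 for Sparcl1 in border macrophages and from -0.049 to 0.071 for Nlgn1 in Apoe-high cells. Genes called for Hevin ranged from 0 to 72 in microglia, 32 to 91 in Apoe-high cells, 9 to 294 in border macrophages, 76 to 294 in endothelial cells and 16 to 58 in astrocytes, and genes that differed between Apoe-high cells and microglia from 2987 to 4506. Where 1 library was left in a group, it was assumed to vary like the other group. The 32 and 20 mCherry Apoe-high cells, and Nlgn1 counts under 10 UMIs in several sums, limit the depth.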
